A study of Mus musculus with 46 samples.

Results

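Collagen crosslinking and hydroxylation enzymes were examined here in hearts of adult mice after deletion of Lmna, the gene of lamins A and C, in heart muscle cells. The set comprised 10 genes, taken as the rows of the count table that carry their names, out of 55359 genes in that table, and each name matched 1 row. There were 4 lysyl oxidases (Lox, Loxl1, Loxl2 and Loxl3), 3 lysyl hydroxylases (Plod1, Plod2 and Plod3) and 3 alpha subunits of prolyl 4-hydroxylase (P4ha1, P4ha2 and P4ha3). The genes were picked by name, with earlier results of these data known.

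The series held 46 bulk RNA libraries from whole hearts of both sexes, in 10 groups. In the time course, made with the NEBNext UltraII Directional kit on poly-A RNA, Lmna F/F mice were compared with Lmna +/+ mice (wild type below) at 3 times after tamoxifen. There were 4 F/F hearts and 5 wild type hearts at 1 week, 2 F/F hearts and 3 wild type hearts at 11 days, and 5 F/F hearts and 7 wild type hearts at 2 weeks. In the second experiment, made with the QuantSeq FWD kit, which reads the 3' ends of messages, Lmna F/F mice were compared with Lmna F/+ mice at 2 weeks, on a cGas +/+ background (6 F/F and 6 F/+) and on a cGas null/null background (4 F/F and 4 F/+). All mice of every group, controls included, carried 1 copy of the Myh6MCM transgene (spelled My6MCM in the labels of the NEBNext F/F mice), a tamoxifen-dependent Cre driven in cardiomyocytes, so fibroblasts and other cells were not the target of the deletion. All received tamoxifen in corn oil at 6 to 8 weeks of age, 100 µL of a 4 mg/mL solution daily for 4 days, and the hearts were perfused with potassium chloride before RNA extraction. The F/+ controls of the second experiment carry 1 floxed allele and are not equivalent to the wild type mice of the first. The 4 F/+ hearts on the cGas null/null background were all male, and every other group held both sexes.

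Total counts ran from 8477358 to 25856892 in NEBNext libraries and from 22099181 to 33993289 in QuantSeq libraries. The 13 mitochondrially encoded mRNAs took 2.98 to 29.0% and 17.8 to 40.9% of them, with other mitochondrial RNAs not included. Lmna itself, on the scale of normalised CPM (counts scaled by library size), had 42.2, 108, 108, 82.8 and 84.9 in the 5 F/F hearts at 2 weeks, against 105 to 125 in wild type hearts. F/F hearts 2 and 3 (hearts are numbered by replicate, in that order) thus lay inside the wild type range, and the calls at 2 weeks are also given without them. RNA of whole hearts includes cells that were not the target of the deletion, so this level does not show how far Lmna was deleted in heart muscle cells. Lmna was 27.0 to 36.9 in F/F hearts, against 45.0 to 67.7 in wild type hearts at 1 week. At 11 days the libraries labelled F/F had 58.3 and 58.4, inside the 52.1 to 118 of those labelled wild type, and the 11-day groups are therefore given by their labels only. In QuantSeq libraries Lmna spanned 16.6 to 28.6 in F/F hearts, against 19.2 to 25.97 in F/+ hearts on the cGas +/+ background, and reads from the 3' end of a message may lie outside the deleted part and check nothing. Cgas spanned 0.609 to 1.198 CPM in cGas null F/F hearts, against 1.97 to 3.79 in cGas +/+ F/F hearts. Each time point of the NEBNext libraries is its own sequencing pool (KIUC030, KIUC037, and KIUC033 with KIUC035 at 2 weeks), so time and pool cannot be told apart and no level is compared between times. The 8 cardiomyocyte markers summed to 18073 CPM or more in every library.

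Collagen chains are modified both inside and outside the cell. Inside the endoplasmic reticulum, prolyl 4-hydroxylases (a catalytic alpha subunit with protein disulfide isomerase, P4hb) hydroxylate prolines, which makes the triple helix stable at body temperature, and lysyl hydroxylases hydroxylate lysines, some of which then carry sugars. Outside the cell, the copper-dependent lysyl oxidases oxidise lysine and hydroxylysine side chains to aldehydes that join neighbouring collagen or elastin molecules covalently. Both kinds of hydroxylase need iron, oxygen, 2-oxoglutarate and ascorbate. In the heart fibroblasts are a main source of collagen and of the enzymes that modify it, and crosslinked collagen is known for stiffening the fibrotic myocardium.

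Promoter sequences were at hand for 5 of the 10 genes in the RefSeq table of build GRCm38.p6, and 4 of them are shown because they set members that rose at 2 weeks (P4ha3 and Plod3) beside members that did not pass the test (P4ha1 and Plod1). Each run holds the 250 bases before the annotated start, 5' to 3' on the gene's strand, and capitals mark every ACGTG or GCGTG on either strand, the core letters bound by hypoxia-inducible factors. P4ha3 lies at chr7:100285270-100285519 on the plus strand, Plod3 at chr5:136986769-136987018 on the plus strand, P4ha1 at chr10:59323046-59323295 on the plus strand and Plod1 at chr4:147936777-147937026 on the minus strand, each directly upstream of its RefSeq start.
P4ha3: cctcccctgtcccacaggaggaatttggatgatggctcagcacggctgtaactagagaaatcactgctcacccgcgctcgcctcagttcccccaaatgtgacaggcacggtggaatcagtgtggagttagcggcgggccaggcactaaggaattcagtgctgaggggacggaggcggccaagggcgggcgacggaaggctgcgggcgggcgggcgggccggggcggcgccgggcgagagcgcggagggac
Plod3: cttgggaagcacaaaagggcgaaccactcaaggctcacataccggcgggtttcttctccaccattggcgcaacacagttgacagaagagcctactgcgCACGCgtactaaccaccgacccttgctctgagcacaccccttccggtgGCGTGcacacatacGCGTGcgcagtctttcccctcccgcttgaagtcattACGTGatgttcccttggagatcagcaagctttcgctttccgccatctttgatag
P4ha1: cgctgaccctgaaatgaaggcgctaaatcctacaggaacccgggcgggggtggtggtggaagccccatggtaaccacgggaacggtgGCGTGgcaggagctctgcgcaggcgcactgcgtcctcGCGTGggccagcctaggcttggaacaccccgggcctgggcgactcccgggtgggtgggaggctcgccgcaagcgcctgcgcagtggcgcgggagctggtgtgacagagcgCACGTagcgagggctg
Plod1: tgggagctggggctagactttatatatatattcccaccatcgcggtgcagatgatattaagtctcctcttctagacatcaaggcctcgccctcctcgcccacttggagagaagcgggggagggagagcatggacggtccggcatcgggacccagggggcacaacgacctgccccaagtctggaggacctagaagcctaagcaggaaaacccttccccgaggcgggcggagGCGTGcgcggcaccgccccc
The core was found 4 times for Plod3, 3 times for P4ha1, 1 time for Plod1 and 0 times for P4ha3, and 38.6% of all 32851 promoter windows of this length held at least 1. These matches describe the letters in the windows only. Neither TGANTCA, the letters bound by AP-1, nor GGAATG, the letters bound by TEAD factors, searched on both strands, stood in any of these windows. They stood in 6.75% and 12.6% of all windows. P4ha2, whose window also held 3 cores, is not shown because the RefSeq start lies inside the gene as GENCODE annotates it.

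At 2 weeks after tamoxifen, 7 of the 10 enzyme messages were higher in F/F than in wild type hearts and 0 were lower, at an adjusted p under 0.05 (edgeR quasi-likelihood test, Benjamini-Hochberg adjustment over all 15627 genes tested). All 4 lysyl oxidases rose, with Plod2, Plod3 and P4ha3. Plod1, P4ha1 and P4ha2 did not pass the test. By the same rule 29.2% of all genes tested were called, 16.2% with the higher direction. The median log2 fold change was 0.98 over the 10 members and 0.04 over all genes. All 10 members passed the filter on low counts, but P4ha3 passed it only through the 2-week F/F libraries: without those, 9 of 10 passed, of which 6 rose. P4ha3 thus had to differ to be tested, and its values and p at 2 weeks are a description. The values of the groups did not overlap for 3 members, Lox, Loxl2 and P4ha3, against 6.68% of all genes with the same, higher direction. In RNA from whole hearts, fewer cells of a type and less RNA per cell cannot be told apart, nor can more cells and more RNA per cell.

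**Figure D1:**
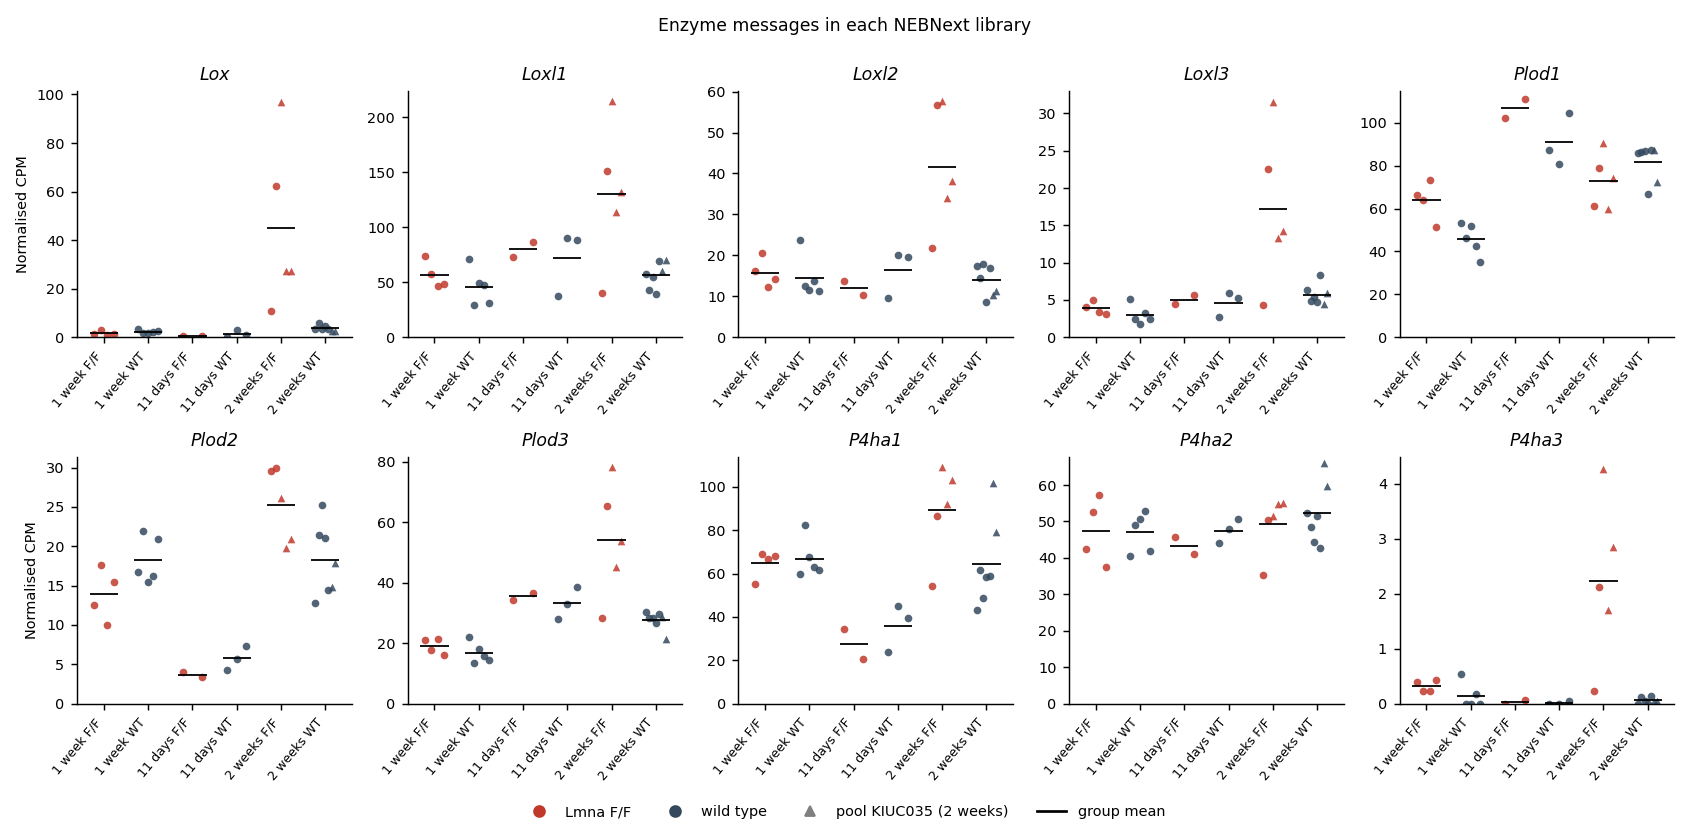
Normalised CPM (vertical axis, linear, from 0) of the 10 enzyme messages in each NEBNext library, by time and genotype (horizontal axis); each point is 1 heart, F/F in red and wild type (WT) in dark blue, triangles mark pool KIUC035, and lines mark the group means. At 2 weeks Lox spans 10.9 to 96.7 in F/F hearts, above the 2.60 to 5.83 of wild type hearts, while P4ha2 overlaps between the genotypes at every time.

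Lox, the founding member that crosslinks collagen and elastin, moved furthest among the oxidases. Its normalised CPM was 10.9, 62.3, 96.7, 27.3 and 27.1 in the 5 F/F hearts, against a lowest value of 2.60, a median of 3.48 and a highest of 5.83 in the 7 wild type hearts. Every F/F heart lay above every wild type heart, with F/F heart 1 lowest and F/F heart 3 highest. The log2 fold change was 3.76 ± 0.46 (SE), with an adjusted p of 4.8e-06 (edgeR). Within pool KIUC033 (2 F/F and 5 wild type) it was 2.52 and within pool KIUC035 (3 F/F and 2 wild type) 4.19, with edgeR adjusted p of 0.0496 and 0.00073.

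Loxl2, an oxidase with scavenger receptor domains that acts on fibrillar and basement membrane collagens, had 21.8, 56.7, 57.8, 34.0 and 38.2 CPM in F/F hearts, against 8.66 to 17.97 in wild type hearts with a median of 14.5. The groups did not overlap, and the log2 fold change was 1.65 ± 0.27 (edgeR adjusted p 9.7e-05). Loxl3, its close relative, had 4.26, 22.6, 31.6, 13.3 and 14.3 CPM in F/F hearts, against 4.51 to 8.32 in wild type hearts with a median of 5.37. In 4 of the 5 F/F hearts Loxl3 was above the wild type range and in F/F replicate 1 it was below it, and the log2 fold change was 1.49 ± 0.34 (edgeR adjusted p 0.0021). Loxl1, known for elastic fibre assembly, had 40.5, 151, 215, 114 and 132 CPM in F/F hearts, against 39.4 to 70.3 in wild type hearts with a median of 57.3. Again 4 F/F hearts were above the wild type range and replicate 1 was within it, and the log2 fold change was 1.00 ± 0.29 (edgeR adjusted p 0.012). Loxl1 lost its call without F/F replicate 2 (0.67, edgeR adjusted p 0.19) or replicate 3 (0.69, 0.083), and Loxl3 without F/F replicate 2 (1.13, 0.072).

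Among the lysyl hydroxylases, Plod3 and Plod2 rose and Plod1 did not pass. Plod3, which also transfers sugars onto hydroxylysine, had 28.3, 65.3, 78.2, 45.0 and 53.7 CPM in F/F hearts, against 21.4 to 30.4 in wild type hearts with a median of 28.3. It was above the wild type range in 4 of 5 F/F hearts, and its log2 fold change was 0.96 ± 0.19 (edgeR adjusted p 0.00066). Plod2, the enzyme that hydroxylates the lysines of collagen telopeptides and so directs the more stable kind of crosslink, had 29.6, 30.0, 26.2, 19.8 and 21.0 CPM in F/F hearts, against 12.7 to 25.3 in wild type hearts with a median of 17.9. The ranges overlapped, 3 of 5 F/F hearts were above the wild type range, and the log2 fold change was 0.59 ± 0.17 (edgeR adjusted p 0.011, and 0.057 without F/F replicate 2). Unlike the other members that rose, Plod2 was not low in F/F replicate 1. Plod1, which hydroxylates lysines of the triple helix, had 61.2, 79.2, 90.4, 59.8 and 74.2 CPM in F/F hearts, against 66.6 to 87.3 in wild type hearts with a median of 86.5. Its log2 fold change was -0.18 ± 0.14 (edgeR adjusted p 0.36), with a 95% interval of -0.45 to 0.09.

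Of the prolyl 4-hydroxylase subunits, P4ha3 rose and the other two did not pass. P4ha3, the least abundant catalytic subunit, had 0.224, 2.13, 4.27, 1.70 and 2.86 CPM in F/F hearts, against 0 to 0.138 in wild type hearts with a median of 0.0470. The groups did not overlap, and summed counts were 359 in 5 F/F libraries and 8 in 7 wild type libraries, a depth-adjusted ratio of 43.3 with a 95% counting interval of 21.8 to 101, which covers counting error only. The fitted log2 fold change was 4.66 ± 0.72 (edgeR adjusted p 5.2e-05), for a gene that entered the test only through these F/F libraries. P4ha1, the main catalytic subunit in most tissues, had 54.3, 86.5, 109, 92.3 and 103 CPM in F/F hearts, against 43.3 to 102 in wild type hearts with a median of 58.8. Wild type hearts of pool KIUC035 had 102 and 79.4 and those of pool KIUC033 43.3 to 61.6, so wild type hearts differed between the pools as well. The log2 fold change of P4ha1 with pool as a covariate was 0.32 ± 0.16 (edgeR adjusted p 0.14, and 0.044 without F/F replicate 1). P4ha2, the second catalytic subunit, had 35.3, 50.4, 51.5, 54.7 and 55.0 CPM in F/F hearts, against 42.8 to 66.1 in wild type hearts with a median of 51.4, and a log2 change of -0.17 ± 0.12 (edgeR adjusted p 0.31).

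**Figure D2:**
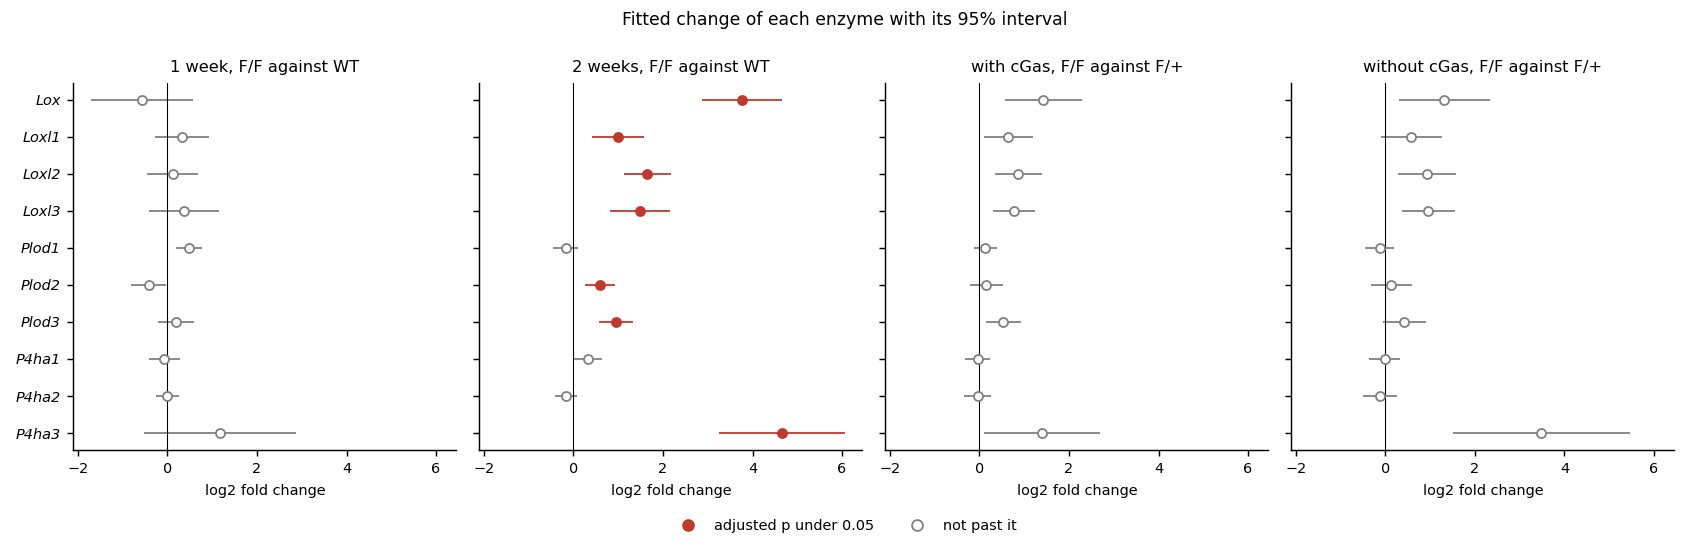
Fitted log2 fold change (horizontal axis) of each enzyme (vertical axis) with its 95% interval, for F/F against wild type at 1 week and 2 weeks (NEBNext) and F/F against F/+ on either cGas background (QuantSeq); filled red points passed an edgeR adjusted p of 0.05. The 7 filled points all belong to 2 weeks, with Lox at 3.76 and P4ha3 at 4.66; the 11-day comparison is not drawn.

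These values rest on factors that assume most genes do not change. With library totals alone, the median of all genes at 2 weeks moved to 0.29 on the log2 scale, and on the deposited TPM (levels per transcript length), as log2(TPM + 1), to 0.21, with 4373 genes higher and 822 lower and with 5253 higher and 705 lower, in place of 2537 and 2025. Under those scalings P4ha1 passed at 0.59 (edgeR adjusted p 0.024) and 0.58 (limma adjusted p 0.028), and Plod1 and P4ha2 turned to 0.09 and 0.10 by library totals and to 0.11 and 0.11 by TPM, values below the shift of all genes. The 7 members that rose stayed called and above that shift under both. F/F hearts 2 and 3, whose Lmna level lay inside the wild type range, also had the highest summed activated fibroblast markers of the 5 F/F hearts, as given below. Without these 2 hearts 3 of 10 members were called: Lox (2.57, edgeR adjusted p 0.0018), Loxl2 (1.18, 0.012) and P4ha3 (3.66, 0.0069), all higher, as were 6.45% of all genes. Plod3 then stood at 0.53 (0.060), Loxl3 at 0.58 (0.26), Plod2 at 0.48 (0.14) and Loxl1 at 0.32 (0.52). Within pool KIUC033 alone, where 9 members could be tested, only Lox was called, higher as were 1.46% of all genes, and within pool KIUC035 alone 6 of 10 were, all but Plod2 of the 7, higher as were 18.3% of all genes.

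On the scale of TPM, which accounts for message length, the order of levels in F/F hearts at 2 weeks was Loxl1 (89.2 ± 52.0, SD, n = 5), Plod1 (48.8 ± 14.6), P4ha1 (48.6 ± 17.7), P4ha2 (47.5 ± 13.5), Plod3 (36.5 ± 16.8), Lox (21.6 ± 18.8), Loxl2 (17.2 ± 7.78), Plod2 (14.6 ± 2.49), Loxl3 (9.49 ± 6.58) and P4ha3 (2.18 ± 1.64). Neighbours in that order overlapped in range at every step. In wild type hearts the order was Plod1 (41.2 ± 4.94, SD, n = 7), P4ha2 (38.0 ± 8.48), Loxl1 (28.1 ± 7.33), P4ha1 (26.4 ± 9.77), Plod3 (13.7 ± 1.36), Plod2 (8.09 ± 1.85), Loxl2 (4.26 ± 1.11), Loxl3 (2.27 ± 0.53), Lox (1.26 ± 0.32) and P4ha3 (0.039 ± 0.036). There the ranges of P4ha1 and Plod3, of Plod3 and Plod2, of Plod2 and Loxl2 and of Lox and P4ha3 did not overlap, and those of the other neighbours did. Lox stood sixth of the 10 in F/F hearts, against ninth in wild type hearts.

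The make-up of the families was compared as each member's share of its family's summed TPM, which does not depend on the scaling between libraries. Lox made up 14.1 ± 4.17% of lysyl oxidase message in F/F hearts at 2 weeks and 3.84 ± 1.90% in wild type hearts (SD, n = 5 and 7), with F/F shares of 10.2 to 19.6% above wild type shares of 2.15 to 6.77%. The difference of 10.3 percentage points had an exact two-sided permutation p of 0.00126, the smallest this design allows, and 0.0152 adjusted over 12 share tests. It was 10.2 points in pool KIUC033 (exact permutation p 0.0476) and 11.4 in pool KIUC035 (0.1), each the smallest p its pool allows. Without F/F hearts 2 and 3 it was 7.29 points, with an exact permutation p of 0.00833, the smallest possible, and 0.1 after adjustment. Loxl1 made up 65.2 ± 4.53% in F/F hearts, against 77.7 ± 4.44% in wild type hearts, which was not tested. P4ha1 made up 48.9 ± 2.42% of the alpha subunits in F/F hearts, against 40.3 ± 4.75% in wild type hearts, a difference of 8.56 points with an exact permutation p of 0.00505, 0.0303 after adjustment. The adjusted p was 0.055 to 0.091 when any one of the 5 F/F hearts was left out, and 0.156 without F/F hearts 2 and 3, where the difference was 7.69 points. Within pools KIUC033 and KIUC035 the difference was 8.39 and 5.64 points, with exact permutation p of 0.0952 and 0.2, and the wild type share itself was 38.7% in KIUC033 and 44.5% in KIUC035. Plod2 made up 15.5 ± 4.24% of lysyl hydroxylase message in F/F hearts, against 12.95 ± 3.23% in wild type hearts, with an exact permutation p of 0.274. In the same family Plod1 made up 46.5 to 53.0% in F/F hearts, against 59.7 to 67.8% in wild type hearts, with means of 49.4 and 65.3%. Plod3 made up 24.3 to 40.5% in F/F hearts, against 19.3 to 23.6% in wild type hearts, with means of 35.1 and 21.8%. The shares of Plod1 and Plod3 were not tested. The share tests held no covariates, sex included.

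**Figure D3:**
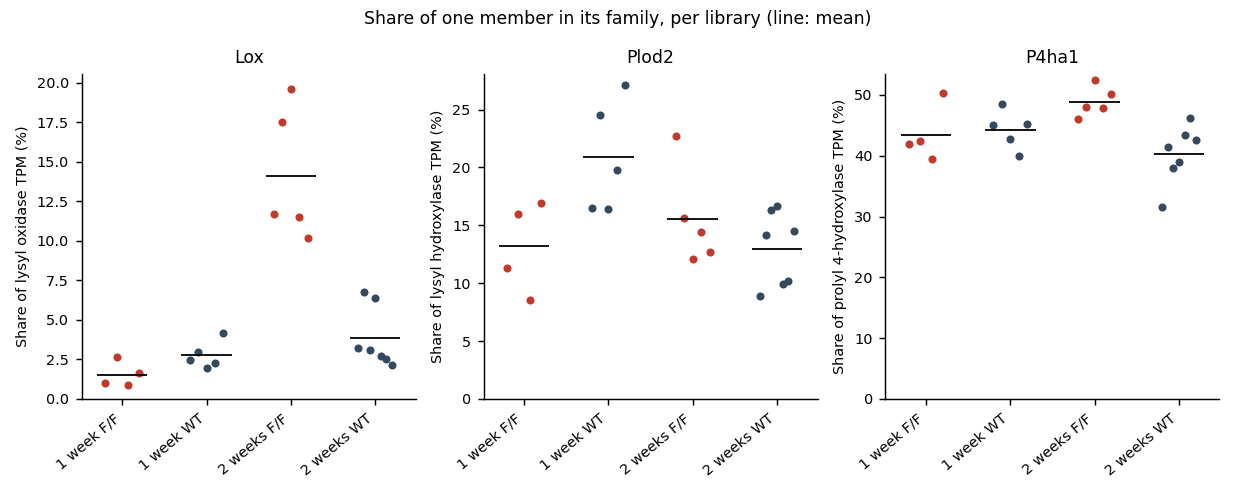
Share of Lox, Plod2 and P4ha1 in the summed TPM of their families (vertical axes, percent, from 0) in each F/F (red) and wild type (WT, dark blue) heart at 1 and 2 weeks (horizontal axis), with group means as lines. The Lox shares of 10.2 to 19.6% in F/F hearts at 2 weeks lie above all wild type shares, and the Plod2 shares overlap at both times.

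The 5 F/F hearts at 2 weeks shared their extremes across most members. Heart 3 was highest for 8 of the 10 enzymes and heart 1, which had the lowest Lmna level, lowest for 8. Markers of activated fibroblasts (Postn, Cthrc1, Fap, Comp, Cilp, Meox1 and Tnc) had the same extremes: their summed level was 91.0 CPM in heart 1, 773 in heart 2, 805 in heart 3, 420 in heart 4 and 365 in heart 5, against 47.7 to 120 in wild type hearts. The 7 macrophage markers summed to 640 to 2812 CPM in F/F hearts and to 368 to 565 in wild type hearts, and all 7 rose. The 8 cardiomyocyte markers summed to 36254 to 66627 CPM in F/F hearts, against 78991 to 97830 in wild type hearts, and 6 of 8 fell. General fibroblast markers, such as Pdgfra and Dcn, overlapped at 1944 to 3587 CPM in F/F hearts, against 2109 to 3998 in wild type hearts, with 3 of 8 higher and 1 lower. The part of these cell types in the enzyme changes was not tested. Of the atrial markers, which show how much atrium a sample holds, 1 of 5 was higher (Nppa, also a stress gene of the ventricle). Their sum spanned 426 to 3224 CPM in F/F hearts, against 321 to 1291 in wild type hearts, and the median log2 fold change of the 5 was -0.66. With an atrial score as a covariate 7 members were called, all higher, as were 2579 of 15627 genes.

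Set against their main substrates, the messages of Col1a1, Col1a2 and Col3a1, 8 of the 10 enzymes had a lower median in F/F hearts, all but Lox and P4ha3, as did 96.1% of all genes tested. Col1a1 and Col3a1 themselves rose at 2 weeks. Per 1000 TPM of those collagens, Loxl1 had 73.8 to 113 TPM in F/F hearts, against 134 to 222 in wild type hearts. P4ha2 had 25.8 to 143 TPM in F/F hearts, against 170 to 422 in wild type hearts on the same scale. Both ranges lay below the wild type range, as did those of 18.5% of all genes tested. P4ha3, at 0.874 to 2.59 TPM per 1000 in F/F hearts, against 0 to 0.554 in wild type hearts, lay above it, as did 0.352%. Lox overlapped, at 12.3 to 27.0 TPM per 1000 in F/F hearts, against 3.84 to 18.6 in wild type hearts with medians of 21.2 and 6.64. These ratios were not tested.

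At 1 week after tamoxifen 0 of the 10 members were called, and of all genes 0.0256% were. Lox had 1.24, 2.95, 0.721 and 1.42 CPM in F/F hearts, against 3.28, 1.73, 1.64, 1.95 and 2.52 in wild type hearts, and a log2 change of -0.57 ± 0.58 (edgeR adjusted p 0.76). The groups overlapped. For 2 members the unadjusted p was under 0.05, Plod1 (log2 fold change 0.48 ± 0.15, edgeR adjusted p 0.35) and Plod2 (-0.42 ± 0.19, edgeR adjusted p 0.48). Plod1 had 66.5, 64.2, 73.5 and 51.5 CPM in F/F hearts, against 53.5, 46.5, 51.7, 42.6 and 35.3 in wild type hearts, with 3 of 4 F/F hearts above the wild type range. The groups overlapped for all 10 members, and the fitted log2 values of the other 7 lay between -0.07 for P4ha1 and 1.17 for P4ha3. DESeq2 called 0 members as well, and edgeR gave an unadjusted p under 0.05 in 1539 genes. P4ha3 was counted 19 times in 4 F/F libraries and 9 times in 5 wild type libraries, a ratio of 2.10 with a counting interval of 0.91 to 5.27.

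At 11 days 0 members and 0 genes of all were called by edgeR, with an unadjusted p under 0.05 in 1 member and in 1302 genes, and DESeq2 also called 0 members. Lox had 0.287 and 0.548 CPM in hearts labelled F/F, against 0.227, 3.06 and 0.981 in hearts labelled wild type, with a log2 change of -1.65 ± 0.97 (edgeR adjusted p 0.66). Plod2 had 4.02 and 3.35 CPM in hearts labelled F/F, against 4.32, 5.61 and 7.34 in those labelled wild type. It was the single member whose groups did not overlap, lower in F/F, as were 11.0% of all genes, with a log2 change of -0.62 ± 0.29 (edgeR adjusted p 0.58). P4ha3 was counted 1 time in each group, too few for a fold. Atrial markers summed to 476 and 491 CPM in hearts labelled F/F and to 775 to 3077 in those labelled wild type, with Bmp10 at 0 in all 5, and their part in these values was not tested.

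Whether the genotype effect differed between times was tested as the difference of effects, and both differences share the 2-week libraries. Time and pool cannot be told apart in these differences either. Between 2 weeks and 1 week the effect was larger at 2 weeks for Lox (difference 4.33 ± 0.76 on the log2 scale, edgeR adjusted p 0.0019), Loxl2 (1.53 ± 0.41, 0.016) and Plod2 (1.01 ± 0.26, 0.014), and smaller for Plod1 (-0.66 ± 0.21, 0.037), against 12.4% of all genes called, 6.52% with a larger and 5.88% with a smaller effect. For Plod2 and Plod1 the fitted effects at the 2 times had opposite signs. The Plod1 call was lost when any 1 of 13 libraries was left out, at adjusted p of 0.050 to 0.088, and under library totals or TPM, at 0.19 each. Without F/F hearts 2 and 3 of the 2-week group, Lox (3.09, edgeR adjusted p 0.018) and Plod1 (-0.83, 0.026) were called, and Loxl2 (1.06, 0.12) and Plod2 (0.93, 0.072) were not. Loxl2 also lost the call without F/F heart 2 alone (1.35, 0.059). Between 2 weeks and 11 days the effect was larger at 2 weeks for Lox (5.41 ± 1.06, edgeR adjusted p 0.0041), Loxl2 (2.11 ± 0.48, 0.0089) and Plod2 (1.21 ± 0.33, 0.022), against 11.7% of all genes, 7.76% with a larger effect. Loxl2 lost that call without the 11-day heart 2 labelled F/F (1.89, adjusted p 0.084), and Plod2 when any 1 of 4 libraries was left out (0.051 to 0.12), without F/F hearts 2 and 3 of the 2-week group (1.06, 0.087) and with the atrial score as a covariate (1.08, 0.066). Without those 2 hearts Lox (4.27, 0.018) and Loxl2 (1.62, 0.045) were still called. The 11-day effect of Lox rests on few counts, 7 and 9 in the libraries labelled F/F and 3 to 36 in those labelled wild type. Lmna in the 11-day hearts labelled F/F lay inside the range of those labelled wild type, as given above. Loxl1, Loxl3, Plod3 and P4ha3, although called at 2 weeks, did not pass in either difference.

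In the QuantSeq hearts on the cGas +/+ background, 0 of 10 members passed the test between F/F and F/+ at 2 weeks, against 4.63% of 14812 genes (edgeR). An unadjusted p under 0.05 was found for 6 members and 2795 genes. DESeq2 called 3 members higher, Lox, Loxl2 and Loxl3, where it called 1054 of 14812 genes, 767 of them higher. The median log2 fold change was 0.59 over the members and -0.01 over all genes. Lox had 15.4, 4.05, 4.45, 2.84, 18.1 and 4.47 CPM in F/F hearts (median 4.46), against 2.02, 1.37, 1.61, 1.98, 1.09 and 5.53 in F/+ hearts (median 1.79). F/+ replicate 6 alone lay inside the F/F range. The log2 fold change was 1.43 ± 0.44 (edgeR adjusted p 0.063), and 2.02 without F/+ replicate 6 (adjusted p 0.0022). Loxl2 had 13.7 to 37.9 CPM in F/F hearts, against 9.25 to 22.2 in F/+ hearts, with a log2 change of 0.87 ± 0.27 (edgeR adjusted p 0.068), and Loxl3 1.34 to 3.20 in F/F hearts, against 0.934 to 1.67 in F/+ hearts, with 0.78 ± 0.24 (0.069). For both, 5 of 6 F/F hearts lay above every F/+ heart. Plod3, at 0.53 ± 0.20, and Loxl1, at 0.65 ± 0.28, were among those under 0.05 before adjustment only. P4ha3 was counted 86 times in 6 F/F and 27 times in 6 F/+ libraries, a ratio of 2.64 with a counting interval of 1.70 to 4.23, and passed the filter on low counts only through the F/F libraries of this kit. Of the 86 counts 36 came from 1 library, and of the 27 counts 16 did. Plod1, Plod2, P4ha1 and P4ha2 had log2 fold changes of 0.13, 0.16, -0.04 and -0.04.

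**Figure D4:**
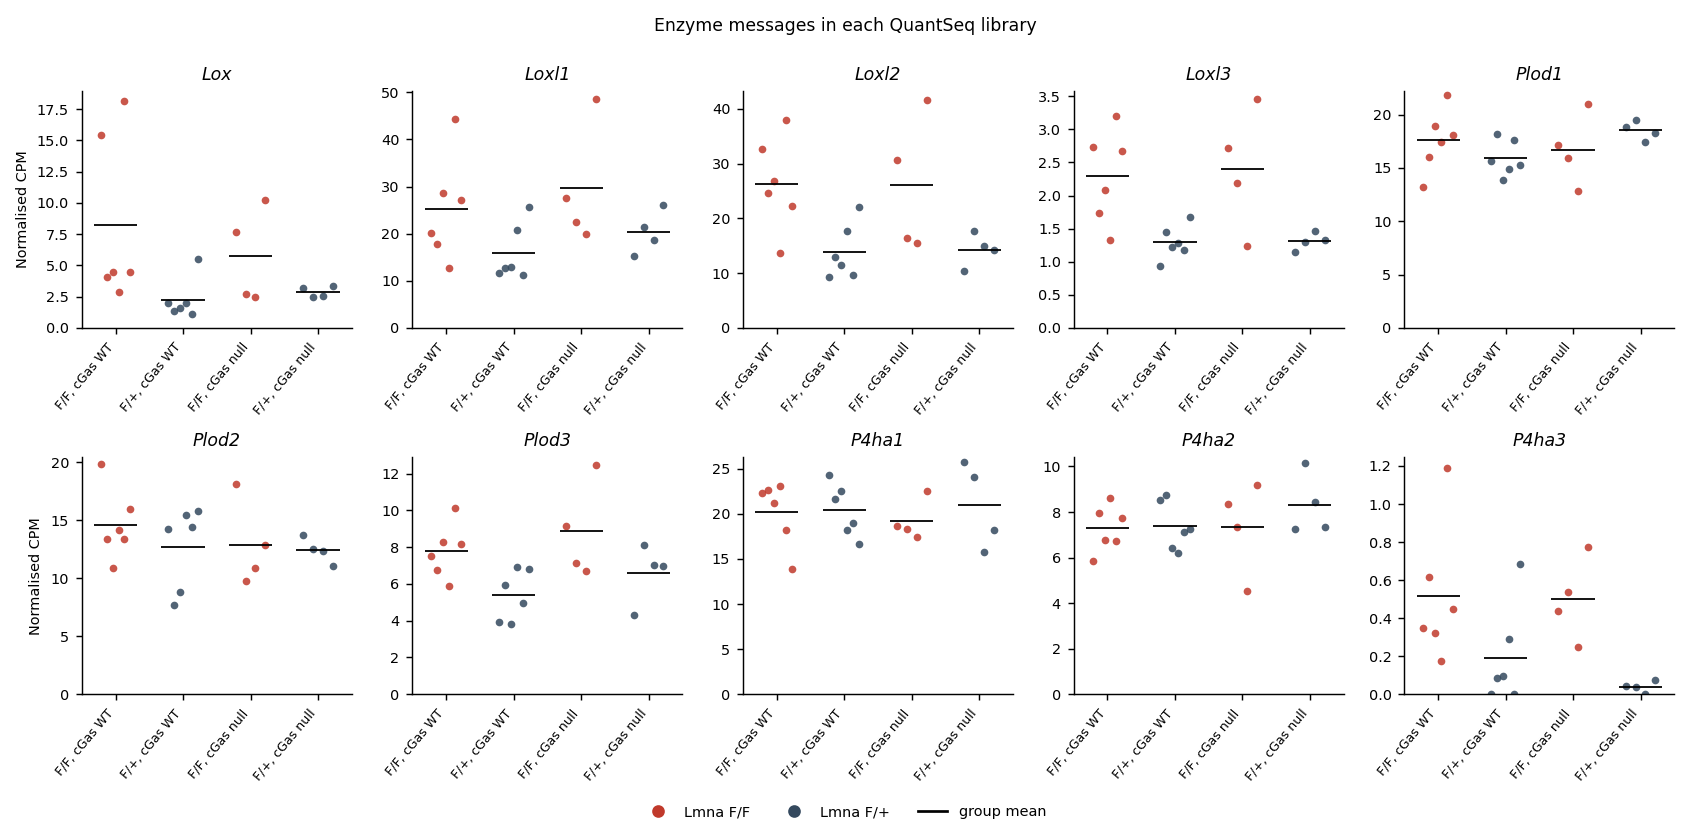
Normalised CPM (vertical axis, linear, from 0) of the 10 enzyme messages in each QuantSeq library at 2 weeks, by Lmna and cGas genotype (horizontal axis); each point is 1 heart, F/F in red and F/+ in dark blue, and lines mark group means. Lox spans 2.84 to 18.1 in F/F hearts and 1.09 to 5.53 in F/+ hearts with cGas, and P4ha1 overlaps in all groups.

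On the cGas null background 0 of 10 members were called as well, against 0.527% of genes (edgeR), with an unadjusted p under 0.05 in 4 members and 1528 genes. DESeq2 called 1 member higher (P4ha3), where it called 251 of 14812 genes, 229 of them higher. Lox had 7.67, 2.69, 2.43 and 10.2 CPM in F/F hearts, against 3.15, 2.48, 2.58 and 3.32 in F/+ hearts, with a log2 change of 1.32 ± 0.52 (edgeR adjusted p 0.32). The groups overlapped, with 2 F/F hearts above the F/+ range. Loxl2 had 30.6, 16.4, 15.4 and 41.7 CPM in F/F hearts, against 10.4, 17.6, 14.9 and 14.2 in F/+ hearts (0.94 ± 0.33, adjusted p 0.24), and Loxl3 2.72, 2.19, 1.24 and 3.46 in F/F hearts, against 1.14, 1.30, 1.46 and 1.33 in F/+ hearts (0.96 ± 0.30, 0.16). In both, as for Lox, F/F replicates 1 and 4 were high. For Loxl3, F/F replicate 2, at 2.19 CPM, also lay above every F/+ heart. Replicates 1 and 4 were male and replicates 2 and 3 female, while all 4 F/+ hearts were male. The edgeR fit held sex as a covariate, and the part of sex in these values was not tested. P4ha3 had 0.439, 0.537, 0.247 and 0.774 CPM in F/F hearts, against 0.0457, 0.0382, 0 and 0.0737 in F/+ hearts, the single member whose groups did not overlap, higher in F/F, as 3.21% of all genes were. It was counted 62 times in 4 F/F and 4 times in 4 F/+ libraries, a ratio of 13.1 with a counting interval of 4.88 to 49.8, and its log2 fold change was 3.49 ± 1.01 (edgeR adjusted p 0.12). P4ha3 passed the filter on low counts only through the F/F libraries of this kit. Its values, its p and its DESeq2 call here are therefore a description.

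The difference between the F/F effect without and with cGas passed for 0 of 10 members and for 0 of all genes (edgeR), with an unadjusted p under 0.05 in 0 members and 215 genes, and DESeq2 called 0 members. For Lox the difference was -0.11 with a 95% interval of -1.49 to 1.26, and for Loxl2 0.07 with an interval of -0.79 to 0.93. The largest fitted difference was that of P4ha3, 2.09 with an interval of -0.43 to 4.60. Compared directly, 0 members and 0 genes were called between cGas null and cGas +/+ hearts in Lmna F/F mice (unadjusted p under 0.05 in 0 members and 850 genes) or in Lmna F/+ mice (0 members and 616 genes), by edgeR, and DESeq2 called 0 members in either. Lox averaged 5.75 CPM in cGas null F/F hearts and 8.23 in cGas +/+ F/F hearts. P4ha3 was counted 62 times in 4 cGas null F/F libraries and 86 times in 6 cGas +/+ F/F libraries, a ratio of 1.02 with a counting interval of 0.73 to 1.43. In F/+ hearts it was counted 4 times in 4 cGas null libraries and 27 times in 6 cGas +/+ libraries, a ratio of 0.205 with a counting interval of 0.052 to 0.589, which covers counting error only. Of those 27 counts 16 came from 1 library, and the edgeR adjusted p of this comparison was 0.99. In these QuantSeq hearts the share of Lox among the oxidases, taken from CPM since reads come from 3' ends, was 12.003 ± 6.10% in F/F hearts, against 6.45 ± 2.28% in F/+ hearts with cGas (exact two-sided permutation p 0.039, 0.156 adjusted over 12) and 8.35 ± 2.57% in F/F hearts, against 7.66 ± 2.03% in F/+ hearts without it (exact p 0.83). The share tests held no covariates, and without cGas all F/+ hearts were male. There the male F/F hearts 1 and 4 had shares of 11.2 and 9.84% and the female hearts 2 and 3 had 6.13 and 6.22%. With cGas the male F/F hearts 1, 4 and 5 had shares of 21.7, 9.27 and 17.5%. The female F/F hearts 2, 3 and 6 had 8.41, 7.19 and 7.87%. Of the F/+ hearts with cGas, the male hearts 1 and 3 had 8.45 and 5.92%. The female hearts 2, 4, 5 and 6 had 4.80, 4.73, 4.72 and 10.1%. The part of sex in the shares was not tested.

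F/F hearts of the second experiment also differed among themselves across members. With cGas, replicate 5 was highest for 7 of 10 enzymes and replicate 4 lowest for 6. Without cGas, replicate 4 was highest for 9 and replicate 3 lowest for 9. Summed activated fibroblast markers with cGas were 41.0 to 146 CPM in F/F hearts, lowest in replicate 4 and highest in replicate 1, and 20.5 to 59.2 in F/+ hearts, highest in replicate 6, the F/+ heart with the most Lox. Without cGas they were 51.0 to 93.7 CPM in F/F hearts, lowest in replicate 3 and highest in replicate 1 with replicate 4 at 92.7, and 21.4 to 33.3 in F/+ hearts. Macrophage markers summed to 438 to 1101 CPM in F/F hearts, against 258 to 362 in F/+ hearts with cGas. There 6 of 7 were higher by the test, where 4.63% of all genes were called. Without cGas they summed to 284 to 609 CPM in F/F hearts, against 257 to 428 in F/+ hearts. There 0 of 7 passed, where only 0.527% of all genes were called. The difference between these effects passed for 0 of all genes. The part of these markers in the enzyme values was not tested.

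Other genes of the pathway were read at 2 weeks in the NEBNext hearts, all by the edgeR test over all genes. It called 16.2% of all genes higher, 2537 of 15627, and 2025 lower. Of 14 genes that fold or modify collagen in the endoplasmic reticulum, 9 rose and 1 fell, with a median log2 fold change of 0.56. Fkbp10, a prolyl isomerase needed for telopeptide lysine hydroxylation, averaged 31.3 CPM in F/F hearts, against 18.3 in wild type hearts (0.84 ± 0.20, adjusted p 0.0022). P3h1 and P3h2, which hydroxylate prolines at another carbon, rose by 0.67 ± 0.17 (0.0042) and 0.69 ± 0.22 (0.019), and Colgalt2, a galactosyltransferase acting on hydroxylysine, fell by 0.74 on the log2 scale (adjusted p 0.015). Of 8 genes of propeptide removal, 3 rose and 0 fell. They were Bmp1, the C-proteinase that also activates the Lox precursor (0.79 ± 0.22, 0.0095), Pcolce, its enhancer (1.02 ± 0.22, 0.0012), and Adamts2, the N-proteinase (1.18 ± 0.33, 0.0088). Loxl4, the remaining lysyl oxidase, averaged 2.42 CPM in F/F hearts, against 0.580 in wild type hearts (1.74 ± 0.53, 0.014).

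Of 12 substrate genes, 8 rose and 0 fell, with a median of 1.40, among them Col3a1 (2.11 ± 0.36, edgeR adjusted p 0.00014), Col1a1 (1.83 ± 0.44, 0.0029) and Col5a2 (1.74 ± 0.34, 0.00057). Fn1, the fibronectin on which collagen is laid down, rose by 2.23 ± 0.42 (0.00036). Of 5 genes that supply the enzymes with copper or ascorbate, 4 were tested and 0 passed, with Atp7a, which loads copper onto Lox, at 0.53 ± 0.34 (0.25) and the ascorbate transporter Slc23a2 at 0.35 ± 0.15 (0.074). By library totals 2 of these 4 were called higher and by TPM 3. Of 14 targets of hypoxia-inducible factors, factors known to induce P4ha1, P4ha2, Plod2 and Lox, 1 rose and 6 fell, with a median of -0.28. By the same test 2537 of all 15627 genes rose and 2025 fell. Slc2a1, a glucose transporter, rose by 0.91 ± 0.18 (0.00048), while Vegfa fell by 0.80 on the log2 scale (adjusted p 0.0035) and Egln1 by 0.59 (0.0032). The falls depended on the scaling: by library totals 1 rose and 2 fell, and by TPM 2 rose and 1 fell, with medians of -0.05 and -0.01 where all genes shifted to 0.29 and 0.21. Of 9 TGF-beta ligands and targets, 6 rose and 0 fell with a median of 1.23, including Ltbp2 (3.11 ± 0.57, 0.00030) and Ccn2 (1.34 ± 0.31, 0.0022). Of 7 activated fibroblast markers 5 rose, among them Tnc at 5.76 ± 0.60 and Postn at 3.08 ± 0.47. Of 6 endothelial markers 3 fell (0 by library totals or TPM), of 6 mural markers 1 fell (0 by library totals, where 1 rose, or TPM), and of 5 mesothelial markers 0 passed. The counts of substrates, of propeptide genes and of macrophage markers were the same under these scalings, 4 of 8 cardiomyocyte markers fell under either, and of the 14 folding genes 12 rose by library totals and 11 by TPM, and 0 fell under either. Under either of them 8 of 9 TGF-beta genes, 6 of 7 activated fibroblast markers and 4 of 8 general fibroblast markers rose, and 0 of these fell. Without F/F hearts 2 and 3 most of these list counts were lower: 1 of 14 folding genes, 0 of 8 propeptide genes, 3 of 12 substrates, 4 of 9 TGF-beta genes, 3 of 7 activated fibroblast markers, 6 of 7 macrophage markers and 0 of 8 general fibroblast markers then rose, and 2 of 14 hypoxia targets, 3 of 8 cardiomyocyte markers and 0 of 6 endothelial markers fell. In the QuantSeq hearts 0 of 12 substrate genes, 0 of 14 folding genes and 0 of 14 hypoxia targets passed on either cGas background, and of the activated fibroblast markers 2 of 7 rose with cGas and 1 of 7 without it. Of all genes 4.63% were called with cGas and 0.527% without it.

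The genes most like each member were sought as those with the highest correlation of log2(CPM + 1), centred on group means, taking the smaller of the 2 kits' coefficients (26 NEBNext and 20 QuantSeq libraries, 13657 genes). The points of each correlation share library, depth and scaling, and the coefficients are descriptions. Lox was most like Cthrc1 (r = 0.83 in NEBNext and 0.84 in QuantSeq), Mmp19 and Efemp2. Loxl1 was most like Col5a1 (0.92 and 0.92), Col15a1 and Sh3gl1, and Loxl2 most like Col5a2 (0.860 and 0.965), Tgfbr2 and Fstl1. Loxl3 stood nearest to genes known from myeloid cells, Pld4 (0.86 and 0.90) and Sirpa, with Tnfrsf1a. Plod3 was nearest to Dbn1 (0.85 and 0.90), Sdc3 and Mrc2, and P4ha3 to Stxbp2 (0.87 and 0.85), Ptk2b and Crlf2. In NEBNext libraries P4ha3 spanned 0.224 to 4.27 CPM in the F/F hearts at 2 weeks and was at most 0.532 in every other group. Its NEBNext coefficients thus rest largely on those F/F hearts.

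The members that did not pass at 2 weeks, and Plod2, had other neighbours. P4ha1 was most like Stip1 (0.755 in NEBNext and 0.80 in QuantSeq), Tars and Hsph1, of which Stip1 and Hsph1 are chaperone genes. Plod2 was nearest to Luc7l3 (0.82 and 0.84), Sf3b1 and Rps6kb1, the first pair of which encode splicing factors. Plod1 was nearest to Parvb (0.77 and 0.75), Tgm2 and Actr1b, and P4ha2 to Slc35a4 (0.75 and 0.85), Parm1 and Naa40. Among the members themselves, the lysyl oxidases correlated with each other at 0.65 to 0.88 in NEBNext and 0.70 to 0.85 in QuantSeq libraries, and with Plod3 at 0.69 to 0.81 and 0.55 to 0.865. Plod2 correlated with Loxl1 at -0.17 and 0.14 and with Plod3 at -0.17 and 0.17. P4ha1 and P4ha2 correlated at 0.66 and 0.25.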

How the data were processed

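RNA was measured in whole mouse hearts, 26 libraries made with NEBNext and 20 with QuantSeq. The authors deposited a table of read counts per gene, and a second table that holds TPM for NEBNext libraries and, on comparison with the counts, CPM for QuantSeq libraries (20 of 20 columns within 0.01). The submitters' processing notes name the aligner STAR 2.7.9 and the build mm39, and whether counting used strand was not stated there. The deposited counts were fitted per kit with edgeR 4.0.16 in R 4.3.3 (TMM factors, filterByExpr with a minimum count of 10 and total of 15, quasi-likelihood test, sex and pool as covariates, Benjamini-Hochberg adjusted p of 0.05), which left 15627 and 14812 genes. The fit was checked on simulated data. Means are of normalised CPM over TMM-scaled library sizes, errors of log2 fold changes are SE, and intervals are 1.96 SE wide on each side. DESeq2 1.42.0, limma 3.58.1 on log2(TPM + 1), other scalings and filters, single pools, single libraries left out, an atrial score and 2 hearts left out (both added after seeing the data) served as alternatives. All 10 members are named, with at most 4 genes of each list, those past the threshold at 2 weeks with the largest change or else the most abundant, and the 3 genes most like each member. Members and lists were chosen with earlier results of these data known. Replicate numbers follow the order of deposit and pair no samples. Each library title names a heart with its own number, and each library is read here as 1 heart. The labels do not state that each number is 1 animal, so the p-values speak of sample-to-sample spread only, which may be technical. Promoters are those of RefSeq on GRCm38.p6, and no coordinate was converted to mm39. Counting intervals are exact at 95% and cover counting error only.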

Additional observations from a re-analysis of the deposited data

Results flagged for a closer look

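Of 80 groups of 4 to 10 libraries, 1 for each member and group, 4 held a library whose gap to its nearest neighbour was past the critical value of Dixon's test, and chance alone gives about 4.0 (1 in 20). Lox had 5.53 CPM in replicate 6 of the F/+ hearts with cGas, where the other hearts had 1.09 to 2.02. Loxl2 had 23.7 CPM in replicate 1 of the wild type hearts at 1 week, where the others had 11.4 to 13.6. P4ha2 had 35.3 CPM in F/F heart 1 at 2 weeks, where the others had 50.4 to 55.0. Plod3 had 21.4 CPM in replicate 7 of the wild type hearts at 2 weeks, where the others had 26.6 to 30.4.

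The F/F effect differed between times by a test of the difference itself (edgeR adjusted p under 0.05) in 7 cases. Between 2 weeks and 1 week the difference was 4.33 for Lox, 1.53 for Loxl2, 1.01 for Plod2 and -0.66 for Plod1 on the log2 scale. Between 2 weeks and 11 days it was 5.41 for Lox, 2.11 for Loxl2 and 1.21 for Plod2. At 11 days Lox was counted only 7 and 9 times in the libraries labelled F/F. Each time has its own sequencing pools. Each effect was measured within the pools of its time, but a difference between times cannot be told apart from a difference between pools. At 2 weeks the Lox effect was 2.52 within pool KIUC033 and 4.19 within pool KIUC035.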

How the results depend on the processing

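Of 2053 values of member log2 fold changes recomputed under alternatives, 1966 stayed on their side of the threshold, 122 of them uncalled values with the other sign, 40 lost the call, 47 gained one and 0 called values changed sign. At 2 weeks 7 members were called, 1 within pool KIUC033 and 3 without F/F hearts 2 and 3, and 4 to 8 with 1 library left out (4 without F/F heart 2). At 11 days no filter gave 1 member, lower. The difference between 2 weeks and 1 week, 4 members, gave 2 without F/F hearts 2 and 3 and 2 to 6 with 1 library left out. That between 2 weeks and 11 days, 3 members, gave 6 with no filter and 1 to 5 with 1 library left out. With cGas, 0 members became 3 by DESeq2, 4 with no filter, 3 without covariates, 1 with only the groups compared and 0 to 4 with 1 library left out. Without cGas, 0 became 1 by DESeq2, 3 with no filter and 2 with only the groups compared. The cause of these moves was not tested. The share of Lox at 2 weeks differed by 11.4 points within pool KIUC035 (exact p 0.1, the smallest possible) and by 8.88 to 11.2 with 1 library left out and 7.29 without F/F hearts 2 and 3. That of P4ha1 differed by 8.39 and 5.64 points within the pools (exact p 0.0952 and 0.2) and by 7.10 to 9.55 with 1 library left out and 7.69 without those hearts. All genes called at 2 weeks, 4562, were 349 in pool KIUC033 and 1849 without F/F hearts 2 and 3, which also took the differences from 1938 to 620 and from 1832 to 793. Those with cGas, 686, were 1054 by DESeq2 and 1183 with no filter. Those without cGas, 78, were 251 by DESeq2, 139 by library totals, 515 with no filter, 21 without covariates and 246 with only the groups compared. At 1 week 4 genes became 20 by DESeq2 and 109 with no filter, at 11 days 0 became 30 and 201, and 1832 between 2 weeks and 11 days became 896 with the atrial score. No paired analysis was possible because the labels give no replicate numbers shared between groups. P4ha3, at 8 counts in 7 wild type libraries, is limited by depth.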
